A study of Solanum lycopersicum with 24 samples.

Results

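Tomato leaf transcripts whose share among polysomes was high relative to total RNA both in cold-treated (Combo) and in untreated (Control) plants were examined as a set of 150. They were taken from 10571 protein-coding RefSeq transcripts (of 37476 in the table) with a mean of at least 5 TPM in total RNA of Combo and of Control. TPM is a relative abundance, corrected for transcript length, that adds up to the same total in every library. For each transcript the log2 ratio of polysome to total TPM was taken after 1 was added to both means, the median ratio of the 10571 transcripts was subtracted, and the lower of the Combo and Control values served as the score. The 150 highest scores define the members. All values of polysome and total RNA libraries of Combo and Control given for them below are therefore a description and carry no test.

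The leaves came from plants of the selection line YaLF grown at 25 °C and used at 28 days of age. Combo plants were hardened at 6 °C for 5 days and then cooled at 0 °C for 2 h, Stress plants were only cooled at 0 °C for 2 h, Hardening plants were only kept at 6 °C for 5 days, and Control plants received neither. The temperatures are those of the sample labels, and the methods of the study differ from them on the hardening temperature and the growth light. Stress and Combo plants were collected later in the day than the others, so the cooling and the hour cannot be told apart. Each condition had 2 libraries of polysomes, 2 of monosomes and 2 of total RNA, which makes 24 libraries. The study calls the 2 libraries technical repetitions and the column headings call them biological, so the p-values below measure only the spread between these libraries.

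During translation several ribosomes can load onto an mRNA and form a polysome, whereas a monosome carries a single ribosome. Sedimentation through sucrose separates these particles, and the share of a transcript in the heavy fraction relative to its share in total RNA is read as a measure of its engagement with ribosomes. Transcripts of 1 gene can differ in their untranslated ends and in splicing, and in plants such differences are known to alter ribosome loading. Retained introns and upstream reading frames are common examples.

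The 10 most abundant transcripts held 11 and 12.5% of the TPM in Combo polysomes and 55.7 and 60% in Control polysomes, against 6.67 and 8.86% in Combo total RNA and 14.8 and 15.9% in Control total RNA. Of 12 leaf marker genes, 8 were found by symbol, with a summed level of 12684 to 79457 TPM per total RNA library. All 6 markers of fruit and pollen were found and summed to 1.04 to 3.80 TPM. In bulk leaves, fewer cells of a type and less RNA per cell cannot be told apart.

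The labels Hardening and Stress did not match between the fractions. Across the 10571 transcripts, which are not independent replicates, the Hardening minus Stress difference in polysomes ran against that in total RNA (Pearson r = -0.73), and so did the difference in monosomes (r = -0.76). For Combo minus Control the same comparison gave r = 0.83 in polysomes and 0.73 in monosomes. Of 87 members that differed over 2-fold between Hardening and Stress in total RNA, 68 differed in the opposite direction in polysomes and 66 in monosomes. For this count the median difference of the 10571 transcripts was subtracted in polysomes and monosomes but not in total RNA. The count was not made for all transcripts. Over the members alone r was -0.76 in polysomes and -0.75 in monosomes, near the values of all transcripts. CAB4, a member that encodes a chlorophyll a/b-binding protein of the light-harvesting antenna, shows the pattern. It had 132 and 138 TPM in polysomes labelled Stress and 12910 and 13695 TPM in polysomes labelled Hardening, whereas total RNA held 6052 and 5473 TPM under Stress and 347 and 341 TPM under Hardening. Whether labels were exchanged was not tested. Tests between fractions were therefore made on the mean over both labels, which an exchange within a fraction does not alter, and no sample was relabelled.

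Scores of the members ran from 0.902 to 3.24, with a median of 1.14. Of the 150, 7 had a score over 2, 24 over 1.5 and 104 over 1. The lower value came from Combo in 76 and from Control in 74. The centred log2 ratio had a median of 1.23 in Combo and 1.39 in Control. The plot of this ratio in both conditions shows that most members lie close to the limit and that a few reach far beyond it. The upper quartile of the members was 1.71 in Combo and 1.72 in Control, and the highest value was 4.14 in Combo and 5.34 in Control.

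**Figure D1:**
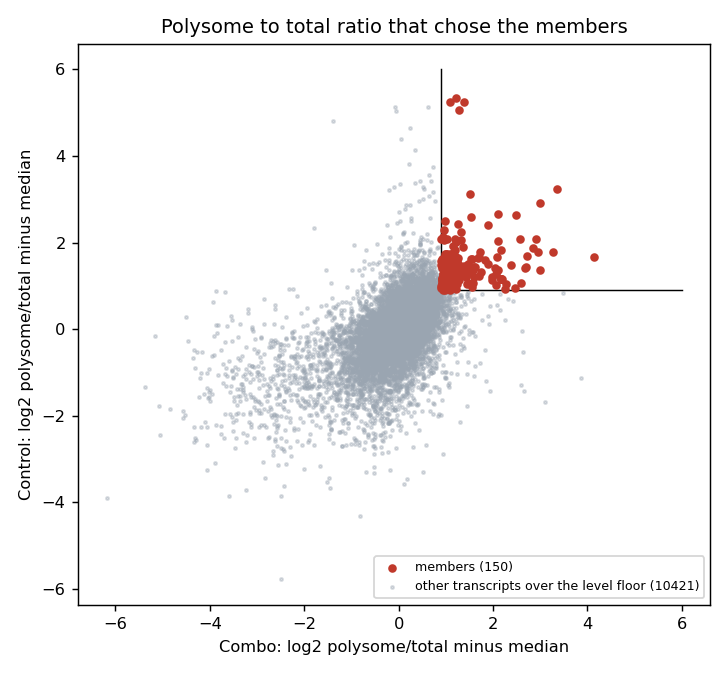
Centred log2 ratio of polysome to total TPM in Combo (x axis) and Control (y axis) for the 150 members and the other transcripts over the level floor. Lines mark the lowest member score of 0.902, and the members fill the corner above and to the right of them because they were chosen by these values.

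Before centring, polysome TPM exceeded total RNA TPM in all 150 members in Combo (33.0% of the 10571 transcripts) and in 53 members in Control (1.49%). The median log2 ratio of the 10571 transcripts was -0.21 in Combo and -1.58 in Control. After centring, both polysome libraries lay above both total RNA libraries for 148 members in Combo (34.9% of the 10571) and for 138 in Control (33.4%). The rule used these same libraries, so nothing is read from these counts.

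The highest score belonged to XM_019214399.2 of LOC101252594. It had 402 and 375 TPM in Combo polysomes, against 29.3 and 56.4 TPM in Combo total RNA. In Control it had 47.4 and 35.5 TPM in polysomes and 13.7 and 11.2 TPM in total RNA. Polysome and total RNA libraries did not overlap in either condition, and the level in both fractions was higher in Combo than in Control. LOC101258124 (XM_004233448.4) was next, with 110 and 97.2 TPM in Combo polysomes, against 16.7 and 11.5 TPM in Combo total RNA. Its Control polysome libraries held 18.8 and 18.6 TPM and its Control total RNA libraries 6.17 and 7.49 TPM. LOC101253428 (XM_019211478.2) followed, with 1834 and 2494 TPM in Combo polysomes and 405 and 485 TPM in Combo total RNA. All 3 lay above total RNA in every polysome library of Combo and Control.

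Ranks 4 to 10 held LOC101254169, XM_010318678.3, LOC101248855, XM_026029051.1, SAM3, LOC101248858 and LOC101248017. Only SAM3 has a gene symbol that states a function. Their scores ran from 1.82 to 2.1. The Control polysome libraries were uneven for some of them, with 1.13 and 38.3 TPM for LOC101248858 and 12.2 and 3.11 TPM for XM_010318678.3. In Combo the same transcripts had 224 and 218 TPM and 68.4 and 92.1 TPM in polysomes, so the spread was smaller there.

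At the limit the scores were close together. The last members were LOC101256783 at 0.907, LOC101253957 at 0.903 and LOC101249675 at 0.902. The first transcripts outside were LOC101259027 at 0.901, LOC101256295 at 0.898 and LOC101251608 at 0.898. The set thus has no gap at its lower end.

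In the libraries that the rule did not use, those labelled Hardening and Stress, most members again had more polysome signal than total RNA. A transcript was called where the log2 difference of scaled TPM passed 1 in either direction with an adjusted p under 0.05 in limma over all transcripts. All 150 members passed the filter on low values. Of them, 80 were called higher in polysomes (53.3%), against 4.80% of the 20577 transcripts tested and 3.56% of those over the level floor. A single member, a transcript of GS2, was called lower (11.2% of all tested, 11% of those over the floor). The median log2 difference was 1.18 for the members and -0.08 for all transcripts tested, and 141 members lay above 0. The plot of the pooled differences shows the members shifted to the right of the other transcripts, with a tail past 3.

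**Figure D2:**
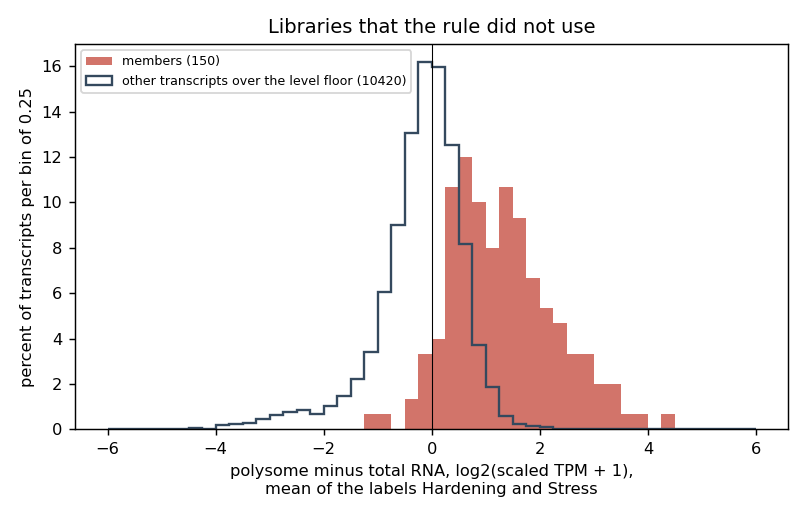
Pooled difference between polysomes and total RNA (x axis, log2 scaled TPM + 1, mean of the labels Hardening and Stress) for the 150 members (filled) and the other transcripts over the level floor (line), as percent of each set per bin (y axis). The member median is 1.18 and that of all transcripts over the floor is -0.09.

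By label, 85 members were called higher and 23 lower under Stress (19.4 and 29.2% of all tested), and 79 higher and 3 lower under Hardening (19.5 and 21.0%). Of the members, 32 were called higher under both labels, 22 were higher under Hardening and lower under Stress, and 3 the reverse. Such overlaps were not counted for all transcripts, so nothing is read from them. The difference between the labels was itself called for 59 members as higher and for 44 as lower under Stress (28.4 and 30.6%). Polysome libraries lay above total RNA without overlap, after centring, for 100 members under Stress (42.6% of the 10571) and 123 under Hardening (44.8%). Without the scaling between libraries the pooled count fell to 44 members, and the median of all transcripts tested moved to -0.72, so the calls are relative to the other transcripts of a library. The 3 largest pooled differences were those of LOC101247523 at 4.27 (standard error 0.47, limma adjusted p = 0.000837), LOC101261389 at 3.97 and LOC101245260 at 3.51. LOC101247523 had 6482 and 7492 TPM in polysomes labelled Stress and 751 and 952 TPM in those labelled Hardening, against 78.9 and 381 TPM in total RNA labelled Stress and 233 and 307 TPM in that labelled Hardening. Its polysome libraries lay above every total RNA library of both labels.

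The lowest pooled differences belonged to GS2 at -1.05, LOC101268253 at -0.81 and LOC101255814 at -0.42, and the last 2 were not called. LOC101268253 had 6.24 and 8.43 TPM in polysomes labelled Stress and 178 and 167 TPM in those labelled Hardening, while total RNA had 219 and 233 TPM under Stress and 52.6 and 55.2 TPM under Hardening. In Combo and in Control its polysome share had been high (centred log2 ratio 1.12 and 1.49).

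A feature that the rule did not use was the number of transcripts of the gene in the table. Of the members, 130 could be matched to 128 genes of the RefSeq annotation of tomato assembly SLM_r2.1. Of these, 67 (51.5%) belong to 65 genes with several transcripts, 3 of them to LOC101260209, compared with 29.4% of the matched transcripts over the level floor. The 3 of LOC101260209 have the same mean TPM in polysomes and in total RNA of every condition. They are thus 1 measurement that enters the counts of members 3 times. The 67 had a median pooled difference of 1.74 and 53 calls higher (5.40% of transcripts of that kind over the floor). The 63 members of genes with 1 transcript had a median of 0.58 and 13 calls higher (2.55%). The 20 members that the annotation does not list had a median of 1.6 and 14 calls higher (6.05%).

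In genes with several transcripts the member was often the minor form in total RNA and the major form in polysomes. Its median share of the TPM of the gene was 76.9% in Combo polysomes and 24% in Combo total RNA, and 67.1% in Control polysomes and 28.3% in Control total RNA. In the pooled Hardening and Stress libraries, which did not choose the members, the median share was 82.9% in polysomes and 27.3% in total RNA, and it was higher in polysomes for 66 of 67 members. For all transcripts of such genes over the level floor the median share was 82.7% in Stress polysomes and 84.8% in Hardening polysomes, against 77.2% in Stress total RNA and 77.8% in Hardening total RNA, and 54.2 and 58.5% of them had the higher share in polysomes. The plot of these shares shows nearly all members above the diagonal.

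**Figure D3:**
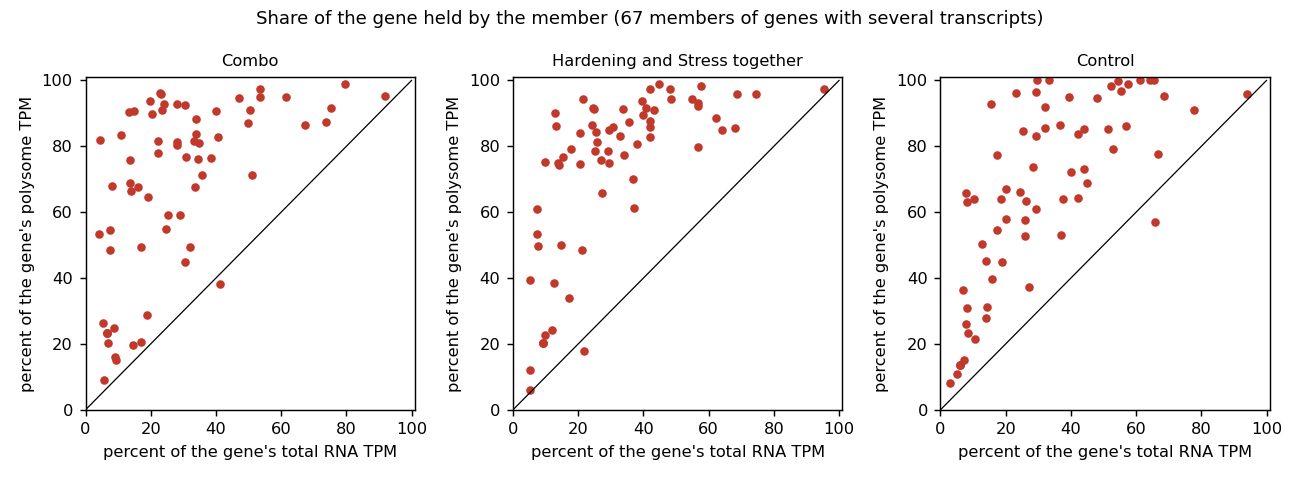
Share of the TPM of its gene held by each of 67 members in total RNA (x axis, percent) and polysomes (y axis, percent), in Combo, in Hardening and Stress together and in Control. Points above the diagonal have the larger share in polysomes, as 66 of 67 do in the middle panel.

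The most abundant other transcript of each of these 65 genes, by total RNA TPM of Control and Combo, was never a member. That choice used libraries of the rule and favours forms that are high in total RNA. Among the 64 that could be tested in the Hardening and Stress libraries, 43 were called lower in polysomes than in total RNA by limma and 0 higher. Of all 20577 transcripts tested, 11.2% were called lower and 4.8% higher. The 64 had a median log2 difference of -1.66. The other transcript lay below the member for 64 of the 66 members compared. At an unadjusted p under 0.05, 3 of them were higher, and the highest value was 0.72, for the other transcript of GS2. LOC101252594 is a clear case. Its member XM_019214399.2 had 196 and 154 TPM in polysomes labelled Stress and 87.1 and 88.9 TPM in those labelled Hardening, against 7.58 and 15.9 TPM in total RNA labelled Stress and 57.8 and 61.3 TPM in that labelled Hardening. The other transcript, XM_004241274.4, had 19.9 and 3.49 TPM in polysomes labelled Stress and 73.9 and 75.1 TPM in those labelled Hardening, against 190 and 172 TPM and 460 and 489 TPM in total RNA of the same labels. The member rose in polysomes by 2.97 (standard error 0.21, limma adjusted p = 0.000226) and the other transcript fell by 2.69 (standard error 0.45, limma adjusted p = 0.00418). The member held 75.3% of the gene in polysomes and 9.81% in total RNA.

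LOC101248855 had the same order. Its member was called higher in polysomes at 2.29 and its other transcript XM_004235160.4 lower at -2.55, and the member held 86.6% of the gene in polysomes and 24.3% in total RNA. The pair of LOC101245260 stood at 3.51 for the member and -2.55 for XM_010324117.3. In LOC101248858 the other transcript was at -0.60, too small for a call, and it stayed the more abundant form in Combo polysomes at 666 and 560 TPM, against 224 and 218 TPM for the member. Kallisto divides reads that fit several transcripts of a gene among them by estimate, so values of single transcripts are less certain than those of the gene. How much of the contrast between the forms comes from that division was not tested.

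When the TPM of all transcripts of a gene were summed, most of the difference in these genes was not seen. The pooled median of the 67 was 0.47 for the sums, with 9 calls higher, against 1.74 and 53 for the transcripts themselves. For LOC101252594 the sum differed by -0.07 between polysomes and total RNA (limma adjusted p = 0.5), and for LOC101258124 by -0.01. In Combo and Control the centred ratio of the sums had a median of 0.37 and 0.34, and for 4 of the 65 genes it reached the limit of the rule in both. Among the 65 genes limma called 9 sums higher and 0 lower, and 8 were lower at an unadjusted p under 0.05. The share of such calls over the sums of all genes was not computed, so these counts have no background. For members of genes with 1 transcript and those not listed the sum is the transcript itself, so their medians of 0.61 and 1.63 say nothing about summing. The plot of both levels shows lower sums where a gene has several transcripts.

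**Figure D4:**
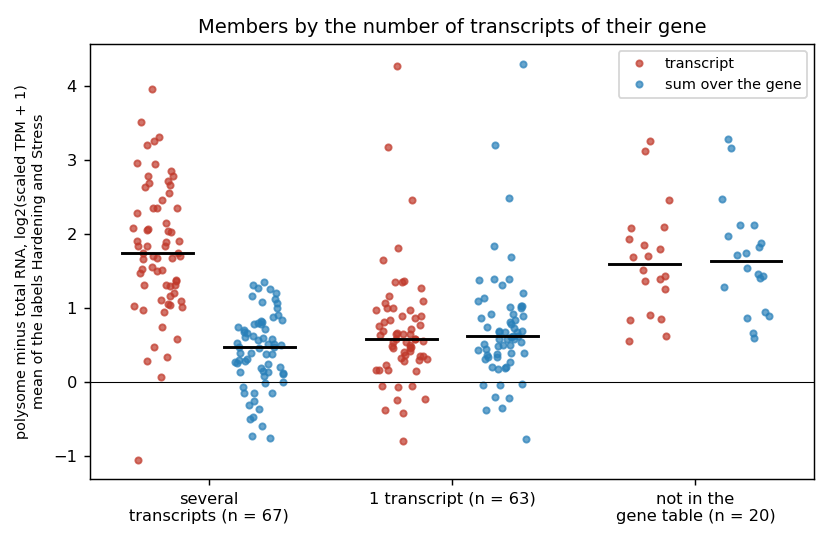
Pooled polysome minus total RNA difference (y axis, log2 scaled TPM + 1, mean of the labels Hardening and Stress) of each member as a transcript (red) and as the sum over its gene (blue), by number of transcripts of the gene. Black bars are medians, which are 1.74 and 0.47 for genes with several transcripts, 0.58 and 0.61 for genes with 1 transcript and 1.6 and 1.63 for members not listed.

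Of the members, 12 carry a gene symbol. The pooled difference called 6 of them higher in polysomes (SAM3, FKBP19, AOC, PIIGLB1, CIF1 and UEV1C) and GS2 lower, and called none of CIP2b, GGP1, Psy1, PSBS and CAB4. The plot of these genes by library shows all 24 values of each.

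**Figure D5:**
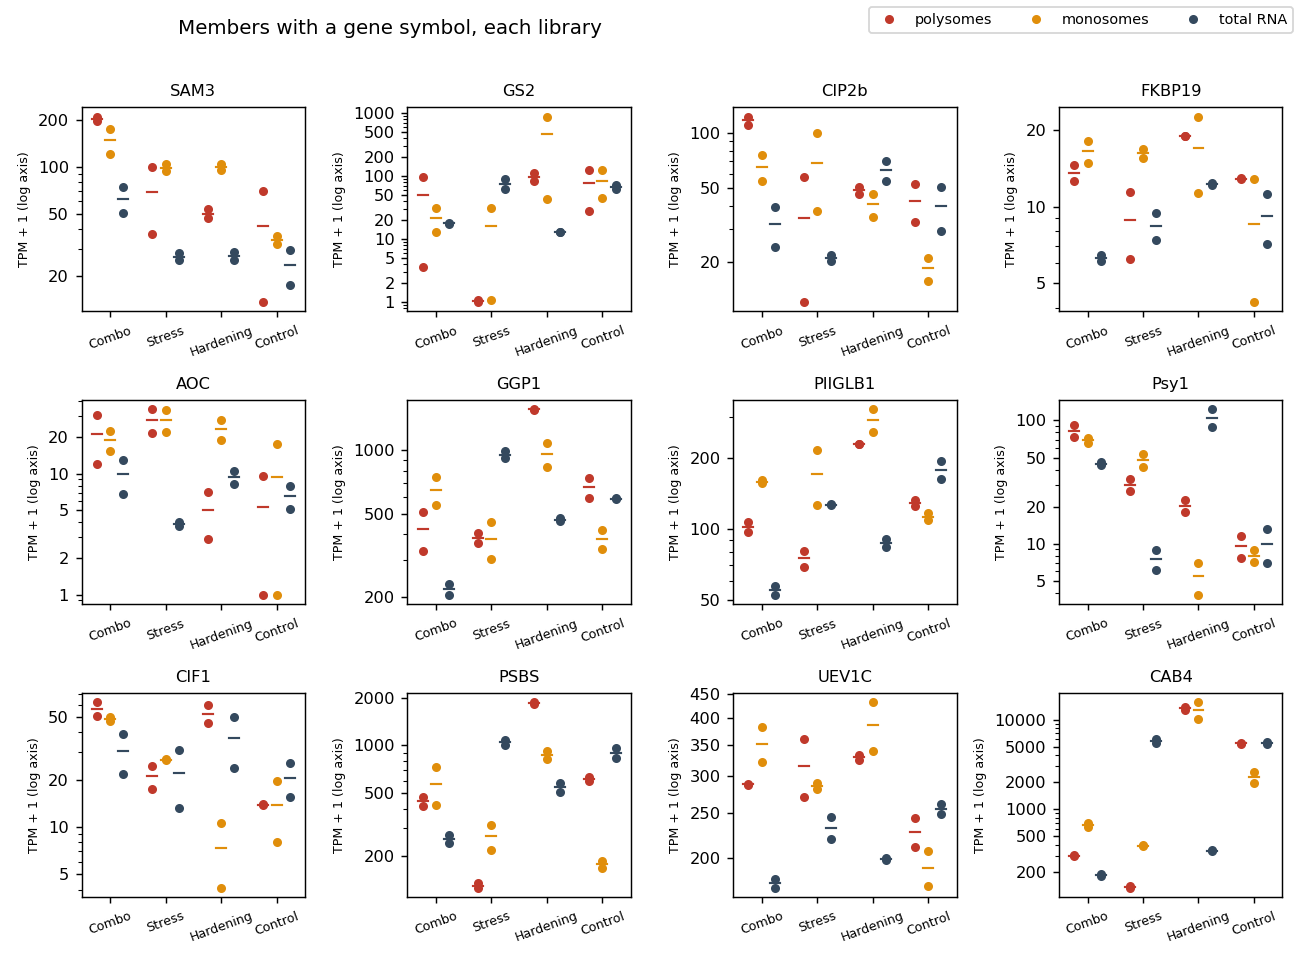
TPM + 1 (y axis, log scale) of the 12 members with a gene symbol in each library of polysomes (red), monosomes (orange) and total RNA (blue), by condition label (x axis). Points are libraries and bars their means, and SAM3 polysomes lie highest in Combo, at 194 and 208 TPM.

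SAM3 encodes an S-adenosylmethionine synthetase, which makes the methyl donor of the cell and the precursor of ethylene. It had 194 and 208 TPM in Combo polysomes, against 49.9 and 73.1 TPM in Combo total RNA. In Control it had 68.7 and 12.7 TPM in polysomes and 16.6 and 28.2 TPM in total RNA, and these overlapped. In the libraries not used by the rule it rose in polysomes by 1.81 (standard error 0.29, limma adjusted p = 0.00342), with 1.87 under Stress and 1.75 under Hardening. SAM1 and SAM2 encode the same enzyme and are not members. Their pooled differences were 0.65 and -0.21, and neither was called.

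Among the genes of nitrogen metabolism, PIIGLB1 encodes the PII protein, a sensor of nitrogen and carbon status in the chloroplast. It had 106 and 96.2 TPM in Combo polysomes and 56.1 and 51.3 TPM in Combo total RNA, but 132 and 124 TPM in Control polysomes and 193 and 162 TPM in Control total RNA. Its raw level in Control polysomes thus lay below total RNA, and only the centring placed it among the members. The pooled difference was 1.09 (standard error 0.08, limma adjusted p = 0.000283), the mean of -0.08 under Stress and 2.27 under Hardening, and the call was lost without scaling (0.32). GS2 encodes the chloroplast form of glutamine synthetase, and its member NM_001323670.1 was the minor transcript, with 5.98% of the TPM of the gene in polysomes and 5.13% in total RNA. Its libraries were far apart, with 97.7 and 2.62 TPM in Combo polysomes and 26.6 and 126 TPM in Control polysomes, against 16.5 and 17.3 TPM in Combo total RNA and 61.6 and 70.9 TPM in Control total RNA. The polysome libraries overlapped total RNA in both conditions that chose it. The pooled value of -1.05 averaged -5.83 under Stress and 3.73 under Hardening. It lost its call without any of 3 libraries, at -0.996 without Hardening total RNA replicate 1, -0.89 without Stress total RNA replicate 1 and -0.95 without Hardening polysome replicate 2, and the sum over the gene stood at 0.74.

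GGP1 encodes GDP-L-galactose phosphorylase, the controlling enzyme of ascorbate synthesis in leaves. It had 510 and 332 TPM in Combo polysomes, against 230 and 205 TPM in Combo total RNA. In Control polysomes it had 739 and 594 TPM, against 591 and 587 TPM in Control total RNA. The polysome values lay above total RNA in both conditions, by a narrow margin in Control. Its pooled difference of 0.99 (standard error 0.08, limma adjusted p = 0.000291) fell just short of the limit of 1 and averaged -0.63 under Stress and 2.61 under Hardening. It passed in 4 of the 8 fits that left out a library. GGP2, which encodes the same enzyme and is not a member, stood at 0.36.

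Psy1 encodes phytoene synthase, the entry enzyme of carotenoid synthesis, and NM_001347836.1 is 1 of 4 transcripts of the gene in the table. It had 90.1 and 72.4 TPM in Combo polysomes, against 42.2 and 44.9 TPM in Combo total RNA, and 10.6 and 6.66 TPM in Control polysomes, against 12.1 and 5.98 TPM in Control total RNA. The groups were apart in Combo and overlapped in Control. Its pooled difference of 0.58, the mean of 2.65 under Stress and -1.50 under Hardening, was not called, while the most abundant other transcript, NM_001347834.1, was called lower at -3.54 (standard error 0.37, limma adjusted p = 0.000734). That transcript had 36.2 and 32.3 TPM in Combo total RNA and no more than 4.49 TPM in Combo polysomes. The sum over the gene was -0.73. PSY2, a related phytoene synthase, stood at -0.45 and was not called.

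PSBS encodes the photosystem II protein that triggers heat dissipation of excess light, and CAB4 an antenna protein. PSBS had 415 and 471 TPM in Combo polysomes, against 241 and 273 TPM in Combo total RNA. In Control its polysomes held 632 and 592 TPM and its total RNA 829 and 960 TPM, so the raw order was the opposite there. Its pooled difference was 0.16, the mean of -2.31 under Stress and 2.64 under Hardening. CAB4 had 306 and 300 TPM in Combo polysomes, against 190 and 181 TPM in Combo total RNA. In Control its polysomes held 5384 and 5435 TPM and its total RNA 5579 and 5298 TPM, which overlap. The pooled value was 0.71 (standard error 0.07, limma adjusted p = 0.000509), the mean of -4.71 under Stress and 6.14 under Hardening, and was not called. Genes of this antenna family are similar in sequence, so reads could have been assigned between them.

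AOC encodes allene oxide cyclase of jasmonate synthesis, and the member XM_019211978.2 held 12.5% of the TPM of the gene in total RNA and 38.5% in polysomes of the Hardening and Stress libraries. It had 29.5 and 11.1 TPM in Combo polysomes, against 5.76 and 12.0 TPM in Combo total RNA. One Control polysome library listed it at 0 and the other at 8.64 TPM, against 6.90 and 4.13 TPM in Control total RNA. Both comparisons overlap. In the remaining libraries it rose in polysomes by 1.56 (standard error 0.33, limma adjusted p = 0.0101), with 3.42 under Stress and -0.31 under Hardening, and its other transcript NM_001247090.2 stood at 0.00. AOS, the preceding enzyme of the pathway, was at 0.21 and was not called.

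FKBP19 encodes a peptidyl-prolyl isomerase of the immunophilin family and UEV1C a variant of ubiquitin-conjugating enzymes. FKBP19 had 13.6 and 11.6 TPM in Combo polysomes and 11.9 in each Control polysome library, against 5.42 and 5.12 TPM in Combo total RNA and 6.12 and 10.2 TPM in Control total RNA. These groups did not overlap. Its pooled difference was 1.03 (standard error 0.20, limma adjusted p = 0.00726), and the call was lost without Stress total RNA replicate 2 (0.94) or Stress polysome replicate 1 (0.81). UEV1C had 287 and 286 TPM in Combo polysomes, against 179 and 171 TPM in Combo total RNA, while Control polysomes held 242 and 210 TPM and Control total RNA 260 and 247 TPM. It rose in polysomes by 1.36 in the pooled comparison (standard error 0.10, limma adjusted p = 0.000247), and by 1.12 under Stress and 1.6 under Hardening.

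CIP2b and CIF1 complete the list. CIP2b had 122 and 110 TPM in Combo polysomes, against 38.5 and 23.1 TPM in Combo total RNA, and its pooled difference of 0.74 was not called (limma adjusted p = 0.226). Without Stress polysome replicate 2, which held 11 TPM where replicate 1 held 56.3, it was 1.29 and passed the test. CIF1 had 50.3 and 61.3 TPM in Combo polysomes, against 20.8 and 38.3 TPM in Combo total RNA, and rose in polysomes by 1.06 in the pooled comparison (standard error 0.34, limma adjusted p = 0.0409). That call was lost in 6 of the 8 fits that left out a library, with values from 0.77 to 1.17.

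The summed TPM of the members was 4.17% of Combo polysomes and 18.1% of Control polysomes, against 1.91% of Combo total RNA and 3.05% of Control total RNA. A single unlisted transcript, XM_010316700.1, named here after its values were seen, made up 1.93% of Combo polysomes and 15.2% of Control polysomes, against 0.960% of Combo total RNA and 1.12% of Control total RNA. It had 14646 and 24008 TPM in Combo polysomes and 153934 and 150943 TPM in Control polysomes, against 5626 and 13578 TPM in Combo total RNA and 6568 and 15847 TPM in Control total RNA. Without it the other members summed to 2.23% of Combo polysomes and 2.88% of Control polysomes. Its pooled difference was 3.12 (standard error 0.60, limma adjusted p = 0.00699). LOC101247523 and the unlisted XM_026028842.1 had the same order, with polysome levels lower in Combo than in Control. XM_026028842.1 had 365 and 616 TPM in Combo polysomes and 3448 and 4370 TPM in Control polysomes.

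Each of the functional groups that could be listed by symbol had at most 36 transcripts over the level floor. Of all 10571 transcripts over the floor, 150 are members, so nothing is read from a list without a member. The list of chlorophyll-binding, photosystem and Rubisco proteins had 21 transcripts over the level floor, of which CAB4 and PSBS are members. In the pooled comparison 1 of the 21 was called higher in polysomes, and the median was 0.59. The list of hormone enzymes and receptors had 18, with AOC as the member, 1 call in each direction and a median of -0.07. No member was found among 7 cytosolic ribosomal protein transcripts (median 0.11), 3 of chaperones (0.17), 7 of ubiquitin and proteasome (0.17), 4 of histones (0.19), 11 of antioxidant enzymes (0.04) or 6 of cold and dehydration proteins (0.13). None was found among 36 of transcription factors (-0.26), 4 of transporters and channels (-0.77), 6 of secreted defence proteins (-0.50) or 12 of cell wall proteins (-0.87). Of the 12 cell wall transcripts, 5 were called lower in polysomes. The transcription factors had 1 call higher and 5 lower, the ubiquitin and proteasome list 1 higher, and the cold and dehydration list 2 lower. The transporter, defence and antioxidant lists had 1 call lower each, and the ribosomal protein, chaperone and histone lists had no transcript past the limits. The lists were made from symbol prefixes, and the ubiquitin prefixes do not take in UEV1C, which is a member, or Uev1D. The list of translation factors matched no transcript over the floor.

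Monosome libraries were not used by the rule in any condition, and most members were more abundant in them than in total RNA. In the pooled Hardening and Stress libraries 93 members were called higher in monosomes than in total RNA and 2 lower, against 7.19 and 13.0% of the 20337 transcripts tested. The total RNA libraries were those of the polysome comparison, so both results are not independent. Over total RNA, 73 members were called higher in both fractions, 20 in monosomes only and 7 in polysomes only. This overlap was not counted for all transcripts, so it has no background. The median difference was 1.47 for the members and -0.09 for all. The largest value was 4.42, for LOC101261389 (standard error 0.78, limma adjusted p = 0.00541), which had 461 and 490 TPM in monosomes labelled Stress and 98.9 and 134 TPM in those labelled Hardening, against 0 and 11.3 TPM in total RNA labelled Stress and 46.7 and 203 TPM in that labelled Hardening. Under Hardening these libraries overlapped. The 2 members called lower were LOC101268253 and LOC101250128, at -1.06 and -1.12. By label, 96 members were called higher and 17 lower under Stress (17.9 and 25.1%), and 97 higher and 8 lower under Hardening (18.8 and 22.3%).

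Between polysomes and monosomes, 1 member was called higher in polysomes and 1 lower, against 0.917 and 0.42% of the 18101 transcripts tested. At an unadjusted limma p under 0.05, 55 of the 150 members differed in either direction. So did 3893 of the 18101 transcripts tested and 2490 of the 10323 over the level floor. The median was -0.20 for the members and 0.02 for all. Both members were named after their values were seen. XM_010324322.3 of LOC101250128 was higher by 1.45 (standard error 0.25, limma adjusted p = 0.0449), with 16.2 and 11.6 TPM in polysomes labelled Stress and 13.7 and 16.5 TPM in those labelled Hardening, against 16.8 and 9.65 TPM and 1.76 and 1.31 TPM in monosomes of the same labels. Only under Hardening were the libraries apart. XM_004243918.4 of LOC101253207 was lower at -1.28 (standard error 0.16, limma adjusted p = 0.0208), with 75.6 and 47.2 TPM in polysomes labelled Stress and 19.9 and 23.2 TPM in those labelled Hardening, against 107 and 179 TPM and 59.6 and 56.0 TPM in monosomes of the same labels. The libraries were apart under both labels. The call of LOC101250128 as higher was lost with the replicate block, a pseudocount of 0.1 or no filter on low values, which each left 0 members called higher. Leaving out 1 library left 0 in 5 of 8 fits, namely those without Hardening monosome replicate 1 or any of the 4 polysome libraries. In 4 of these, all but the fit without Stress polysome replicate 1, 0 members were called lower as well. By label, 1 member was called higher in polysomes than in monosomes and 18 lower under Stress (2.98 and 3.82%), and 18 higher and 20 lower under Hardening (7.58 and 3.84%).

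In total RNA, members tended to the lower side in Stress relative to Hardening. Limma called 21 members higher and 51 lower (14 and 34%), against 17.0 and 16.0% of the 21983 transcripts tested and 13.3 and 18.8% of those over the level floor. The median log2 difference was -0.64 for the members and -0.06 for all. The largest calls higher were LOC101245729 at 4.78 (standard error 0.10, limma adjusted p = 8.09e-07) and LOC101245586 at 4.54. LOC101245729 had 3969 and 3600 TPM in Stress and 166 and 150 TPM in Hardening. CAB4 was higher in Stress than in Hardening by 4.27, GS2 by 2.72, GGP1 by 1.24 and PSBS by 1.15. Relative to Control, after subtracting the median change and without a test, CAB4 stood at 0.03 in Stress and -4.43 in Hardening. GS2 stood at 0.12 and -2.82, GGP1 at 0.65 and -0.78, and PSBS at 0.17 and -1.17. The largest calls lower were Psy1 at -3.62 (standard error 0.33, limma adjusted p = 0.000147) and LOC101247807 at -3.45. Psy1 had 5.09 and 7.86 TPM in Stress and 86.8 and 122 TPM in Hardening. LOC101247807 had 1.33 and 0.0519 TPM in Stress and 22.0 and 14.9 TPM in Hardening. On the same untested scale relative to Control, Psy1 stood at -0.48 in Stress and 2.94 in Hardening. LOC101247807 stood at -2.59 in Stress and 0.54 in Hardening. When the transcripts of a gene were summed, 33 members in place of 51 were called lower, and the share over the sums of all genes was not computed.

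The remaining changes in total RNA involve libraries of the rule and are described only. In Combo relative to Control, 13 members lay above 1 and 48 below -1 on the centred log2 scale, against 14.8 and 18.4% of the 10571 transcripts. In Combo relative to Hardening the counts were 2 and 36 (2.45 and 2.4%), in Combo relative to Stress 23 and 47 (14.5 and 19.0%), in Stress relative to Control 3 and 17 (2.19 and 2.2%), and in Hardening relative to Control 21 and 29 (12.9 and 16.3%). The total RNA level is part of the rule, so nothing is read from these counts.

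In monosomes, limma called 41 members higher and 25 lower in Combo than in Control (27.3 and 16.7%), against 25.0 and 14.5% of the 17386 transcripts tested and 29.0 and 11.9% of those over the level floor. These shares are near the background. TPM without scaling gave 97 higher and 9 lower, since the median of all transcripts then stood at 1.57. Without Combo monosome replicate 1 the counts were 23 and 16, and without replicate 2 they were 22 and 16. The largest calls higher were LOC101265212 at 5.09 (standard error 1.21, limma adjusted p = 0.0146) and LOC101251389 at 4.24 (standard error 0.27, limma adjusted p = 0.000173). LOC101251389 had 1211 and 1333 TPM in Combo monosomes and 17.7 and 26.1 TPM in Control monosomes, and the libraries of LOC101265212 held 271 and 268 TPM in Combo and 0.0237 and 11.6 TPM in Control. The largest calls lower were LOC101247523 at -6.89 (standard error 0.56, limma adjusted p = 0.000323) and XM_026028842.1 at -4.76 (standard error 1.05, limma adjusted p = 0.0106). The call of LOC101265212 was lost without Combo monosome replicate 1 or 2 (limma adjusted p = 0.067 and 0.0722), and that of XM_026028842.1 without replicate 2, at -3.45. LOC101247523 had 562 and 216 TPM in Combo monosomes and 12710 and 14490 TPM in Control monosomes. Among members with a symbol, Psy1 rose by 1.6, a call lost without Combo monosome replicate 1 (1.56), and CAB4 and PIIGLB1 were called lower at -3.37 and -1.11. Without scaling PIIGLB1 stood at 0.49, in the other direction.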

How the data were processed

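RNA of total, monosome and polysome fractions of tomato leaves was sequenced in 24 libraries. The authors converted the reads with bcl2fastq 2.20, quantified them with kallisto on the SL3.1 transcriptome and deposited TPM for 45845 transcripts. The study states read totals, but TPM keep no read counts per transcript, so the number of reads behind a single value is unknown, no counting interval is given and no count test was run. Kallisto estimates how reads shared by several transcripts divide among them.

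The members and gene lists were chosen with earlier results of these data known. TPM were divided by trimmed-mean factors (30% of log ratios and 5% of levels trimmed), transcripts with a mean under 1 in the libraries of a fit were left out, and log2(scaled TPM + 1) was fitted with limma 3.58.1 (trend, R 4.3.3), with Benjamini-Hochberg adjusted p over all transcripts tested. Fold changes on this scale understate changes of low transcripts. Calls needed a change past 1 and an adjusted p under 0.05. The fit was tested on simulated data. Polysome against total, polysome against monosome and monosome against total RNA used the Hardening and Stress libraries, with 2 replicates per group. Stress against Hardening and Combo against Control used the 8 libraries of their fraction.

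Named transcripts are the 10 highest scores, members with a symbol or on a list, the 3 highest and 3 lowest pooled polysome differences, 3 on each side of the limit, and the 2 largest calls in each direction between conditions. Gene names came from the RefSeq table of another assembly, SLM_r2.1, so no coordinates or sequences are given. Alternatives changed the scaling, pseudocount, filter, replicate block, libraries, labels, and transcripts or gene sums.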

Additional observations from a re-analysis of the deposited data

Results flagged for a closer look

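The difference between polysomes and total RNA was not the same under the labels Stress and Hardening. By the interaction term in limma, it was higher under Stress for 59 members and lower for 44, against 28.4 and 30.6% of all transcripts tested. The fractions disagree on these labels, as described above, and the part of that disagreement in the interaction was not tested. Among the members with a symbol the interaction on the log2 scale was 3.72 for AOC (limma adjusted p = 0.00274) and 4.15 for Psy1 (limma adjusted p = 7.82e-05), which were higher under Stress. It was -2.35 for PIIGLB1 (limma adjusted p = 3.96e-05), -3.24 for GGP1 (limma adjusted p = 7.25e-06) and -4.94 for PSBS (limma adjusted p = 6.44e-07). GS2 stood at -9.56 (limma adjusted p = 2.26e-06) and CAB4 at -10.86 (limma adjusted p = 1.7e-07), the lowest values of the 7 genes.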

How the results depend on the processing

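Of the single-transcript values, 543 kept their direction and call, 55 lost the call, 15 gained it and 19 reversed. Without scaling, members higher and lower in polysomes than in total RNA numbered 44 and 4, in monosomes than in total RNA 59 and 5, and in Combo than in Control monosomes 97 and 9, while the median of all transcripts moved to -0.72, -0.75 and 1.57. Gene sums gave 40 and 0 for polysomes over total RNA, 0 higher for polysomes over monosomes, 61 higher for monosomes over total RNA and 33 lower for Stress against Hardening. Shares over the sums of all genes were not computed. The fit of all 24 libraries gave 0 lower for polysomes over total RNA and for polysomes over monosomes, and 1 for monosomes over total RNA. Under Hardening alone polysomes over total RNA had 3 lower, polysomes over monosomes 18 higher and 20 lower, and monosomes over total RNA 8 lower. Under Stress alone the lower counts were 23, 18 and 17. A pseudocount of 0.1 and no filter each gave 0 higher for polysomes over monosomes, and no filter gave 1 lower for monosomes over total RNA and 22 higher and 12 lower for Combo against Control monosomes. Leaving out 1 library gave 74 to 82 higher and 0 to 1 lower for polysomes over total RNA, 0 to 2 and 0 to 3 for polysomes over monosomes, 89 to 97 and 1 to 2 for monosomes over total RNA, 21 to 23 and 45 to 48 for Stress against Hardening, and 22 to 44 and 16 to 25 for Combo against Control monosomes. Without the 20 unlisted members, an alternative chosen after seeing the data, 66 were higher.

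Same-numbered libraries deviated together in total RNA (mean r 0.26) and not in monosomes (mean r -0.04). For the polysome and total RNA libraries of Hardening and Stress the mean r was 0.04, from -0.08 to 0.28. That mean mixes pairs within a fraction and pairs between fractions, which were not separated. The labels give no shared origin. With the replicate block 80 and 1, 0 and 1, 96 and 2, 21 and 56, and 39 and 25 members were called in the 5 comparisons in the order above. Of the 150 members, 137 and 118 stayed with pseudocounts of 0.1 and 5, 95 to 96 with a single replicate, 80 and 93 with floors of 2 and 10 TPM, 87 with gene sums and 119 with scaled TPM, which was added after seeing the data. The floor of 10 TPM was passed by 93 members. Summing leaves unchanged the TPM of the 63 members of genes with 1 transcript and of the 20 unlisted members. Of the 65 genes with several transcripts, 4 reached the limit of the rule as sums in both Combo and Control. Pooled values reversed with gene sums for LOC101252594 (-0.0749), LOC101258124 (-0.0075), GS2 (0.74) and Psy1 (-0.73), under Hardening alone for LOC101253428 (-0.68), GS2 (3.73), AOC (-0.31), Psy1 (-1.50), LOC101268253 (2.52) and LOC101255814 (0.39), and under Stress alone for GGP1 (-0.63), PIIGLB1 (-0.0811), PSBS (-2.31) and CAB4 (-4.71). Without scaling they reversed for CIP2b (-0.0127), Psy1 (-0.17), PSBS (-0.62) and CAB4 (-0.0664), and so did PIIGLB1 in monosomes of Combo against Control (0.49). The causes were not tested.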
